A study of Mus musculus with 24 samples.

Results

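Hkdc1 and the hexokinase genes Hk1, Hk2 and Hk3 were followed across the daily cycle in mouse retinal pigment epithelium (RPE). These are 4 of the 54232 gene identifiers in the table of read counts, and all 4 passed the filter on low counts that left 20275 genes for testing. Hkdc1 was chosen for its large genotype difference at circadian time 22 (CT22) in these same libraries, and the others because they are its paralogs. Every Hkdc1 value that uses the CT22 libraries is therefore given as a description, without a test.

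The study sequenced mRNA from RPE cut out of snap-frozen eyes by laser capture. All mice were male, 6 weeks old and of the mixed strain C57BL/6/J x 129 SvEvBrd. They were wild type or carried the Per1-/-Per2Brdm1 alleles of the circadian clock genes Per1 and Per2, and no other treatment was labelled. Eyes were taken at CT19, CT22, CT1 and CT10, which gave 8 groups of 3 libraries and 24 libraries in all. In total 5 libraries were pooled from 2 eyes, of which 4 were Per1-/-Per2Brdm1 and 1 was wild type. "Knockout" below means a library labelled Per1-/-Per2Brdm1. The counts of both targeted genes went against that word: Per1 ran from 24.4 to 185 CPM (read counts scaled to the library total after its TMM factor) in wild type and from 76.9 to 252 CPM in knockout, and Per2 from 10.2 to 160 CPM and from 75.4 to 153 CPM. Gene-level counts do not show which part of a gene an allele lacks. Nothing in the labels ties each library to its own mouse, and p-values here reflect variation among libraries, which may be technical.

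Hexokinases phosphorylate glucose to glucose 6-phosphate, the step that traps the sugar in the cell and opens glycolysis, the pentose phosphate pathway and glycogen synthesis. Hexokinase 1 and hexokinase 2 bind the outer mitochondrial membrane, and hexokinase 3 is best known from white blood cells. Hkdc1 encodes a protein of the same fold with weak hexokinase activity. The RPE passes glucose from the choroid to the photoreceptors, which consume much of it by glycolysis, so these enzymes sit on both sides of the boundary that the laser cut followed.

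The tissue label was checked against marker genes. RPE markers were abundant in every library: Ttr, which encodes transthyretin, ran from 13770 to 31361 CPM, and Rpe65, the isomerase of the visual cycle, from 2808 to 7226 CPM. The RPE chloride channel gene Best1 was an exception, at 0 to 1.91 CPM. Rod photoreceptor transcripts were also abundant in all libraries, with the transducin gene Gnat1 at 6069 to 35956 CPM. Total counts ran from 16245067 to 32066263 per library.

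Hkdc1 and Hk1 are neighbours. In GRCm38, Hkdc1 (ENSMUSG00000020080) lies on chromosome 10 from 62383137 to 62422491, minus strand. Hk1 (ENSMUSG00000037012) lies on the same strand from 62268855 to 62379908, and 3228 bases separate the gene bodies. Hk2 (ENSMUSG00000000628) lies on chromosome 6 from 82725025 to 82774454, and Hk3 (ENSMUSG00000025877) on chromosome 13 from 55005985 to 55021385, both on the minus strand. Hkdc1 overlaps no other annotated gene. Hk1 overlaps the antisense gene Hk1os, which was at 2.00 to 6.66 CPM. Hk2 overlaps the antisense gene Gm17034, which was at 0 CPM in every library. Hk3 overlaps Unc5a, a netrin receptor gene on the plus strand that was at 0.53 to 8.60 CPM, with a higher mean than Hk3 in all 8 groups, so Hk3 counts are uncertain if strand was not used in counting.

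The bases before the RefSeq start sites of Hkdc1, Hk1 and Hk2 are shown because these genes have like coding sequences and Hkdc1 and its paralogs were highest at different times. They are from the RefSeq promoter table (GRCm38.p6), on the gene's strand, and stop where a GENCODE exon of the same gene begins. Capitals mark the matches to the searched motifs, which here are CCAAT boxes.
Hkdc1, chr10:62422492-62422707, minus strand: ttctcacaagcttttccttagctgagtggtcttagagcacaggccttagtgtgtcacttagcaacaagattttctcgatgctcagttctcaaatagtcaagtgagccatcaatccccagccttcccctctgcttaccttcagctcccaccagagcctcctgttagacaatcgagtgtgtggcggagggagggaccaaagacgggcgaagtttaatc
Hk1 (the start site inside the annotated gene), chr10:62340543-62340671, minus strand: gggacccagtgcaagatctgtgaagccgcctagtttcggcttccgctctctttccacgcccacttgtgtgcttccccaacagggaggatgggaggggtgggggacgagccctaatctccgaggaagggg
Hk2, chr6:82774455-82774704, minus strand: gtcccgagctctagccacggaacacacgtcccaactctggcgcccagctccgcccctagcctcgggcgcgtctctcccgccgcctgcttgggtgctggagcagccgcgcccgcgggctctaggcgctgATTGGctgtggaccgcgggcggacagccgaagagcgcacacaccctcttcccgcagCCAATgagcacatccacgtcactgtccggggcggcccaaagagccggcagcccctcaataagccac

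A search covered 7 motifs on both strands of the whole windows, which run from 250 bases before to 50 bases after the start site. These were the E-box CACGTG, its variant CACGTT, the D-box TTATGTAA, the nuclear receptor core AGGTCA, the OTX and CRX core TAATCC, the CCAAT box and the HNF4-like direct repeat, which contains that core in both of its arms. None of these letters stood in the Hkdc1 window. In the Hk2 window the CCAAT box stood once on the opposite strand and once on the gene's strand. The window of the Hk1 start site shown held the CACGTT variant on the opposite strand at position 16 after the start, outside the printed bases. The window of Hk3 held the same variant at -156. Of 32851 promoters of this length, 7.15% held the E-box, 4.68% its variant, 0.938% the D-box, 16.3% the nuclear receptor core, 7.06% the OTX and CRX core, 37.4% the CCAAT box and 0.0396% the HNF4-like repeat. A match is a run of letters and no evidence of binding.

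The coding sequences are alike but not so alike that longer reads would be shared. Hkdc1 and Hk1 were identical at 71.3% of aligned bases, Hkdc1 and Hk2 at 70.7%, and Hkdc1 and Hk3 at 63.8%. No pair among the 4 shared a run of 50 bases. The longest run that Hkdc1 shared with each of its most alike paralogs is shown, as the closest the genes come to yielding the same read.
Hkdc1 and Hk1, 26 bases: gacacagtggggaccatgatgacctg
Hkdc1 and Hk2, 24 bases: ggagtggggggcctttggggacga

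Levels per length put Hk1 and Hk2 far above Hkdc1, and Hk3 near the floor. On the scale of CPM per kilobase of exon, averaged over 24 libraries, Hk1 was at 118.7, Hk2 at 77.2, Hkdc1 at 7.17 and Hk3 at 0.420. These levels were higher than those of 98.6%, 97.8%, 71.1% and 21.8% of the tested genes. In bulk RNA of this kind, fewer cells of a type and less RNA per cell cannot be told apart.

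Hkdc1 peaked in wild type RPE at CT22, and knockout RPE lacked that peak. Wild type libraries at CT22 were at 92.7, 85.5 and 67.8 CPM (mean 82.0 ± 12.8, SD, n = 3). Knockout libraries at CT22 were at 23.2, 15.3 and 21.7 CPM (20.0 ± 4.21, n = 3). The wild type mean was 4.09 times the knockout mean, a fitted log2 difference of -2.03 (SE 0.21), and the lowest wild type library stood well above the highest knockout library. At CT22, 4.79% of the tested genes had all knockout libraries below all wild type libraries, and since Hkdc1 was picked on this contrast nothing is read from that share. The genotype contrast at CT22 called 0.227% of the tested genes.

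**Figure D1:**
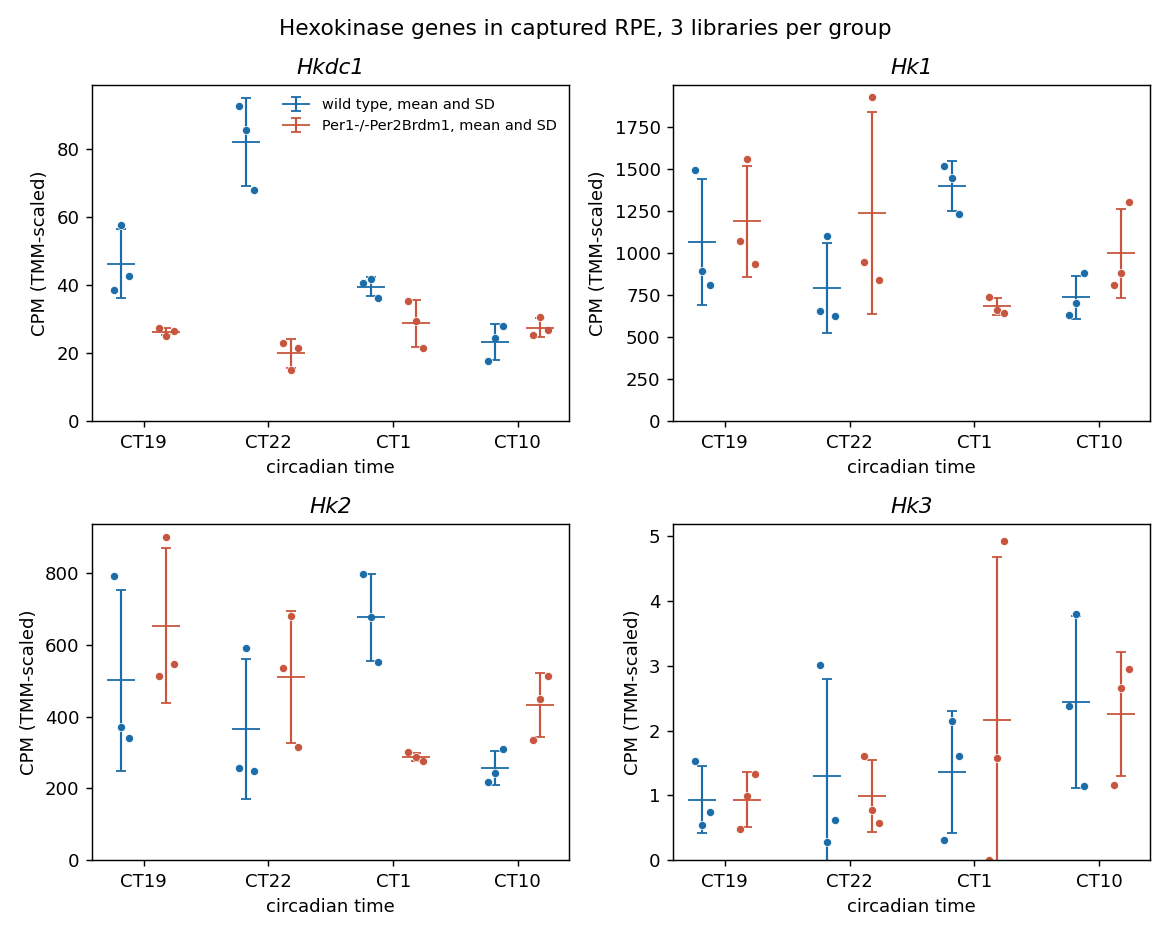
CPM of Hkdc1, Hk1, Hk2 and Hk3 (y axes, scaled by TMM and different for each gene) against circadian time, with 1 point per library and the mean ± SD of 3 libraries; SD bars that pass 0 are cut at the axis. Hkdc1 stands at 67.8 to 92.7 CPM in wild type at CT22 and at 57.7 CPM or less in every other library, while Hk1 and Hk2 are high in wild type at CT1.

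The other times carried smaller Hkdc1 differences, in libraries that the choice of the gene did not use. At CT19 wild type libraries were at 38.7, 57.7 and 42.7 CPM (46.4 ± 10.025) and knockout libraries at 27.6, 25.2 and 26.4 CPM (26.4 ± 1.17). The fitted difference was -0.81 (SE 0.21; p 0.000546, adjusted p 0.316 by the edgeR quasi-likelihood test, Benjamini-Hochberg adjusted over all tested genes), and 0.0691% of the tested genes passed at that time. All 3 knockout libraries were below all 3 wild type libraries, as in 5.31% of the tested genes at CT19. At CT1 wild type libraries were at 40.6, 41.8 and 36.3 CPM (39.6 ± 2.88) and knockout libraries at 35.3, 29.5 and 21.7 CPM (28.8 ± 6.84).

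The CT1 groups did not overlap either, but their nearest libraries were 35.3 and 36.3 CPM, and 14.6% of the tested genes showed the same order. The fitted CT1 difference was -0.46 (SE 0.20; adjusted p 0.214 by the edgeR test). It was -0.27 without replicate 5 of the knockout group and -0.63 without replicate 1 of that group. The contrast at CT1 called 0.533% of the tested genes. At CT10 wild type libraries were at 17.7, 24.4 and 28.1 CPM (23.4 ± 5.26) and knockout libraries at 25.3, 30.5 and 26.8 CPM (27.5 ± 2.69). These ranges overlapped, with a fitted difference of 0.24 (SE 0.21; adjusted p 0.575 by the edgeR test) in a contrast that called 0.0345% of genes. The difference was 0.03 without replicate 1 of wild type CT10 and 0.33 without replicate 4 of that group. Averaged over CT19, CT1 and CT10 the difference was -0.34 (SE 0.12; p 0.00737, adjusted p 0.656 in edgeR), and 0.217% of genes passed. No Hkdc1 genotype difference outside CT22 therefore passed the adjusted threshold of 0.05.

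Within wild type, Hkdc1 changed over the day even with CT22 set aside. Its fitted log2 range over CT19, CT1 and CT10 was 0.99 (p 0.000218, adjusted p 0.033 in edgeR's quasi-likelihood F test), with CT10 lowest, and 1.51% of the tested genes passed that test. The call was lost on leaving out any 1 of 9 libraries, namely replicates 2 and 4 of wild type CT19, 2 and 3and6 of wild type CT1, 1, 2 and 4 of wild type CT10, or 2 and 4 of knockout CT10. Over all 24 left-out libraries the range stayed between 0.75 and 1.07, with adjusted p from 0.021 to 0.256. It was also lost with total count scaling (0.82, adjusted p 0.0934) and without the pooled libraries (0.90, adjusted p 0.099). It was kept with RLE scaling (adjusted p 0.0471), DESeq2 (0.00627), no filter (0.00223) and a mean of at least 5 CPM (0.0461). A rod or a choroid marker score as a covariate also kept it (0.0283 and 0.0116). DESeq2 called 1467 of all genes and the fit with no filter 2026 of 32680, against 306 in edgeR as fitted here.

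Knockout RPE showed little change of Hkdc1 over the same times. The log2 range was 0.13 (adjusted p 0.958 in edgeR), in a test that called 0% of genes, with 2791 genes at an unadjusted p under 0.05 and 305 genes called by DESeq2. The test of whether the genotypes differ over CT19, CT1 and CT10 gave a log2 range of 1.05 (p 0.00451, adjusted p 0.0658 in edgeR), which did not pass. That test called 4.42% of genes. Without replicate 2 of knockout CT22, which carries no Hkdc1 value of this contrast but enters the shared fit, the adjusted p was 0.0489. With CT22 included, as a description, the highest group mean was 3.51 times the lowest in wild type and 1.44 times the lowest in knockout.

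The order of the 8 group means placed wild type at CT22 first, then wild type at CT19, wild type at CT1, knockout at CT1, CT10 and CT19, wild type at CT10 and knockout at CT22. The first and second groups did not overlap, but this pair uses the CT22 libraries, so nothing is read from it. The third and the fourth, which are the CT1 groups, did not overlap either. Their nearest libraries were at 36.3 and 35.3 CPM, and 14.6% of the tested genes showed that order at CT1. All other neighbours in that order overlapped. Wild type RPE at CT10 stood above knockout only at CT22, a time that the choice of the gene used. Outside CT22 wild type at CT10 had the lowest mean, at 23.4 CPM. The knockout means at CT19, CT1 and CT10 were 26.4, 28.8 and 27.5 CPM, with libraries that overlapped it.

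**Figure D2:**
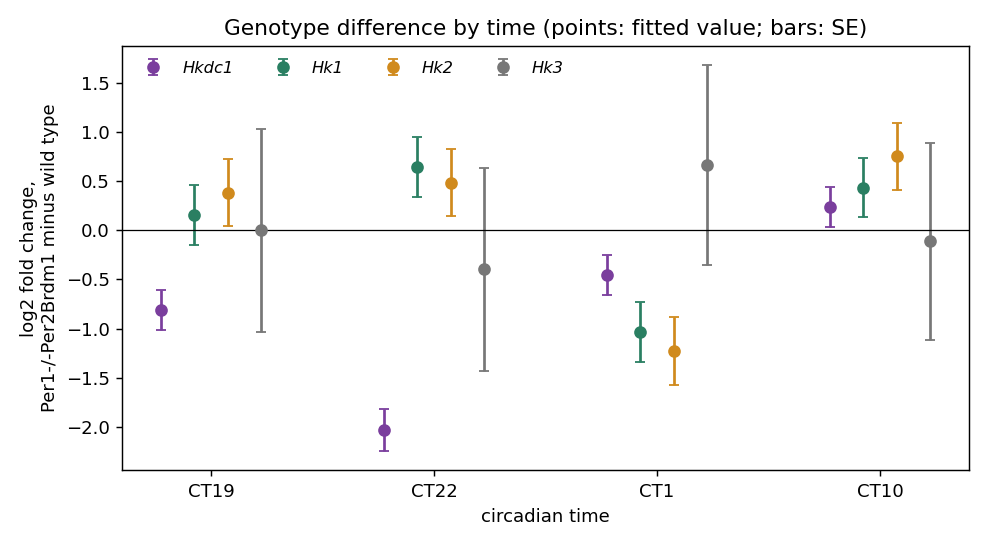
Fitted log2 difference, Per1-/-Per2Brdm1 minus wild type (y axis), at each circadian time (x axis) for the 4 genes, with points for the edgeR estimate and bars for its SE. Hkdc1 lies at -0.81, -2.03, -0.46 and 0.24 in order of time, whereas Hk1 and Hk2 lie above 0 at every time but CT1, where they stand at -1.03 and -1.23.

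Hk1, the main hexokinase of most tissues, followed another course from Hkdc1. At CT1 wild type libraries were at 1518, 1446 and 1230.1 CPM (1398 ± 149.8) and knockout libraries at 742, 660.5 and 646.5 CPM (683 ± 51.4). The wild type mean was 2.05 times the knockout mean, and the lowest wild type library lay far above the highest knockout library, an order shown by 14.6% of genes at CT1. The fitted difference was -1.03 (SE 0.31; p 0.00241, adjusted p 0.084 in edgeR), just short of the threshold. It passed with DESeq2 (adjusted p 0.0215), with no filter on low counts (0.00375) and with only the 6 libraries of CT1 (0.0151). Those settings also called many more of all genes at CT1, namely 1081, 1556 of 32680 and 693 of 17399, against 108 in edgeR as fitted here. The adjusted p was 0.118 with total count scaling and 0.281 without the pooled libraries. On leaving out 1 library it ran from 0.0311, without replicate 2 of knockout CT22, to 0.266.

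At the other times the 2 genotypes overlapped for Hk1. Wild type libraries at CT22 were at 653, 1102 and 629 CPM and knockout libraries at 947, 1928 and 839.5 CPM. The fitted difference there was 0.64 (SE 0.30; adjusted p 0.382 in edgeR). On leaving out 1 library it ran from 0.15, without replicate 2 of knockout CT22, the library with 1928 CPM, to 0.95, without replicate 3 of wild type CT22. At CT19 the wild type mean was 1066 ± 374 CPM and the knockout mean 1188 ± 327 CPM, and at CT10 they were 738 ± 128.4 and 998 ± 266 CPM. The average genotype difference over 4 times was 0.05 (SE 0.15; adjusted p 0.981 in edgeR), in a contrast that called 0.375% of genes. Over the 4 times the range of Hk1 was 0.92 in wild type (adjusted p 0.179 in edgeR, with 0.947% of genes passing) and 0.86 in knockout (adjusted p 0.412). The range of its genotype difference was 1.67 (adjusted p 0.0563), and 4.62% of genes passed that test.

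Hk2, the inducible hexokinase of muscle and of photoreceptors, moved with Hk1. At CT1 wild type libraries were at 798, 679 and 553 CPM (677 ± 122.4) and knockout libraries at 301, 287 and 277 CPM (288 ± 12.1). The wild type mean was 2.35 times the knockout mean, with no overlap, an order shown by 14.6% of the tested genes at CT1. The 3 knockout libraries lay close together. The fitted difference was -1.23 (SE 0.35; p 0.00155, adjusted p 0.0745 in edgeR), which passed with DESeq2 (0.0153), with no filter (3.42e-05) and with only the 6 libraries of CT1 (0.0107), the settings with many more calls over all genes. Adjusted p was 0.11 with total count scaling and 0.276 without the pooled libraries, and ran from 0.0505 to 0.267 on leaving out 1 library.

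At CT10 the order of the genotypes was turned. Wild type Hk2 was at 218, 242 and 310.3 CPM (257 ± 47.9) and knockout Hk2 at 335, 450.1 and 513 CPM (433 ± 90.1). All knockout libraries were above all wild type libraries, as in 17.7% of genes at CT10, with a difference of 0.75 (SE 0.34; adjusted p 0.251 in edgeR). At CT19 wild type Hk2 was at 792, 373 and 339 CPM and knockout Hk2 at 513, 901 and 548 CPM, and at CT22 they were at 256, 591 and 248.7 and at 536, 681 and 316 CPM. Both times had overlapping groups, with differences of 0.38 and 0.48. On leaving out 1 library these ran from 0.07, without replicate 3and5 of knockout CT19, to 0.91, without replicate 1 of wild type CT19, and from 0.21, without replicate 2 of knockout CT22, to 1.02, without replicate 3 of wild type CT22. Over the 4 times the range of Hk2 was 1.40 in wild type (adjusted p 0.0899 in edgeR) and 1.18 in knockout (adjusted p 0.34).

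Hk2 was the only one of the 4 whose genotype difference changed over the 4 times past the threshold, Hkdc1 not being tested over all 4. This genotype by time test called 4.62% of all tested genes. For Hk2 the log2 range of the genotype difference was 1.98 (p 0.00175, adjusted p 0.0443 in edgeR's quasi-likelihood F test), from CT1 to CT10. The call was kept on leaving out replicate 3 of knockout CT22, replicate 1 of wild type CT19 or replicate 3 of wild type CT22, and was lost on leaving out any 1 of the other 21 libraries (1.79 to 2.25, adjusted p 0.0198 to 0.165 over all 24). It was also lost with RLE scaling (adjusted p 0.0616), total count scaling (0.0919), a mean of at least 5 CPM (0.0507), no pooled libraries (0.255) and the rod marker score as a covariate (range 0.86, adjusted p 0.231). It was kept with DESeq2 (adjusted p 0.0047), with no filter (2.97e-07) and with a choroid marker score as a covariate (0.0496). Those settings called 2455, 2686 of 32680 and 283 of all genes, against 937 in edgeR as fitted here.

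Rod transcripts differed between the genotypes with the same signs as Hk1 and Hk2 at each time. The rod score, the mean log2(CPM + 1) of 19 rod markers, was 10.96 in wild type and 9.72 in knockout at CT1. At CT22 it was 9.56 and 10.60, at CT19 10.30 and 10.77, and at CT10 9.98 and 10.29. It was thus lower in knockout at CT1 and higher in knockout at the other times, the signs of both genes' differences. Within wild type the rod score was lowest at CT22, whereas Hk1 and Hk2 had their lowest means at CT10, at 738 and 257 CPM.

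Across the 24 libraries, Hk1 correlated with the rod score with Pearson's r = 0.957 (permutation p 1e-05, the smallest the permutations can give, adjusted p 0.0002 over 40 relations) and Spearman's rank correlation = 0.957 (permutation p 1e-05). It stayed at 0.95 without the 2 libraries farthest from the median score, at 0.95 within wild type and 0.97 within knockout, and at 0.97 after group means were subtracted. For Hk2 r was 0.908 (permutation p 1e-05, adjusted p 0.0002), Spearman's coefficient 0.897 (permutation p 1e-05), and r was 0.92 without the 2 farthest libraries. Its r was 0.89 in wild type, 0.94 in knockout and 0.93 after group means. Hk1 and Hk2 also rose with the cone score (r of 0.72 and 0.76) and with the inner retina and glia score (0.62 and 0.66), and ran against the endothelial score (-0.80 and -0.73), all passing after adjustment.

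With the rod score as a covariate the CT1 difference of Hk1 moved from -1.03 to -0.05 (SE 0.17) and that of Hk2 from -1.23 to -0.09 (SE 0.20). The CT22 differences turned sign, to -0.24 for Hk1 and -0.40 for Hk2. At CT19 they were -0.19 and 0.02, and at CT10 0.17 (SE 0.14) and 0.46 (SE 0.16; adjusted p 0.121 in edgeR). The wild type range of Hk2 over 4 times was 0.79 in that fit (adjusted p 0.0512 in edgeR). At CT1 the rod scores did not overlap, at 10.77 to 11.22 in wild type and 9.60 to 9.81 in knockout. The fit therefore cannot fully separate score from genotype there. Rod markers were present in every library, and the part of rod RNA in the Hk1 and Hk2 values was not tested beyond this fit.

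Hkdc1 was set against the same scores outside CT22. Over the 18 libraries without CT22 its r with the rod score was 0.27 (permutation p 0.281, adjusted p 0.398) and Spearman's coefficient was 0.23 (permutation p 0.357). Leaving out the 2 farthest libraries gave 0.32, and r was 0.44 within wild type and -0.26 within knockout. With the RPE score r was 0.36 (permutation p 0.147, adjusted p 0.25), Spearman's coefficient 0.38 (permutation p 0.117), and r was 0.08 without the 2 farthest libraries. With the inner retina and glia score r was the largest of the 10, at 0.49 (permutation p 0.0393, adjusted p 0.0982) and 0.26 without the 2 farthest libraries, with Spearman's coefficient at 0.51 (permutation p 0.0317). Spearman's coefficient was largest with the blood score, at 0.53 (permutation p 0.0266), where r was 0.40. By either coefficient none of the 10 passed after adjustment. Choroidal melanocyte markers were lower in knockout than in wild type at the times where Hkdc1 differed most. Their score, over 6 genes of which none reached 0, was 5.46 to 5.80 in wild type and 4.59 to 5.34 in knockout at CT22, and 5.38 to 6.14 and 4.57 to 5.21 at CT19. At CT1 the ranges overlapped, at 5.40 to 5.77 and 5.35 to 5.85. The r of Hkdc1 with this score outside CT22 was 0.25 (permutation p 0.315, adjusted p 0.398), and -0.29 after group means were subtracted. Other scores were also lower in knockout without overlap at CT19. These were the mural and smooth muscle score (4.28 to 4.62 against 4.80 to 5.18) and the blood score (4.09 to 4.61 against 4.97 to 5.25). The part of any of these cells in the Hkdc1 values was not tested.

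**Figure D3:**
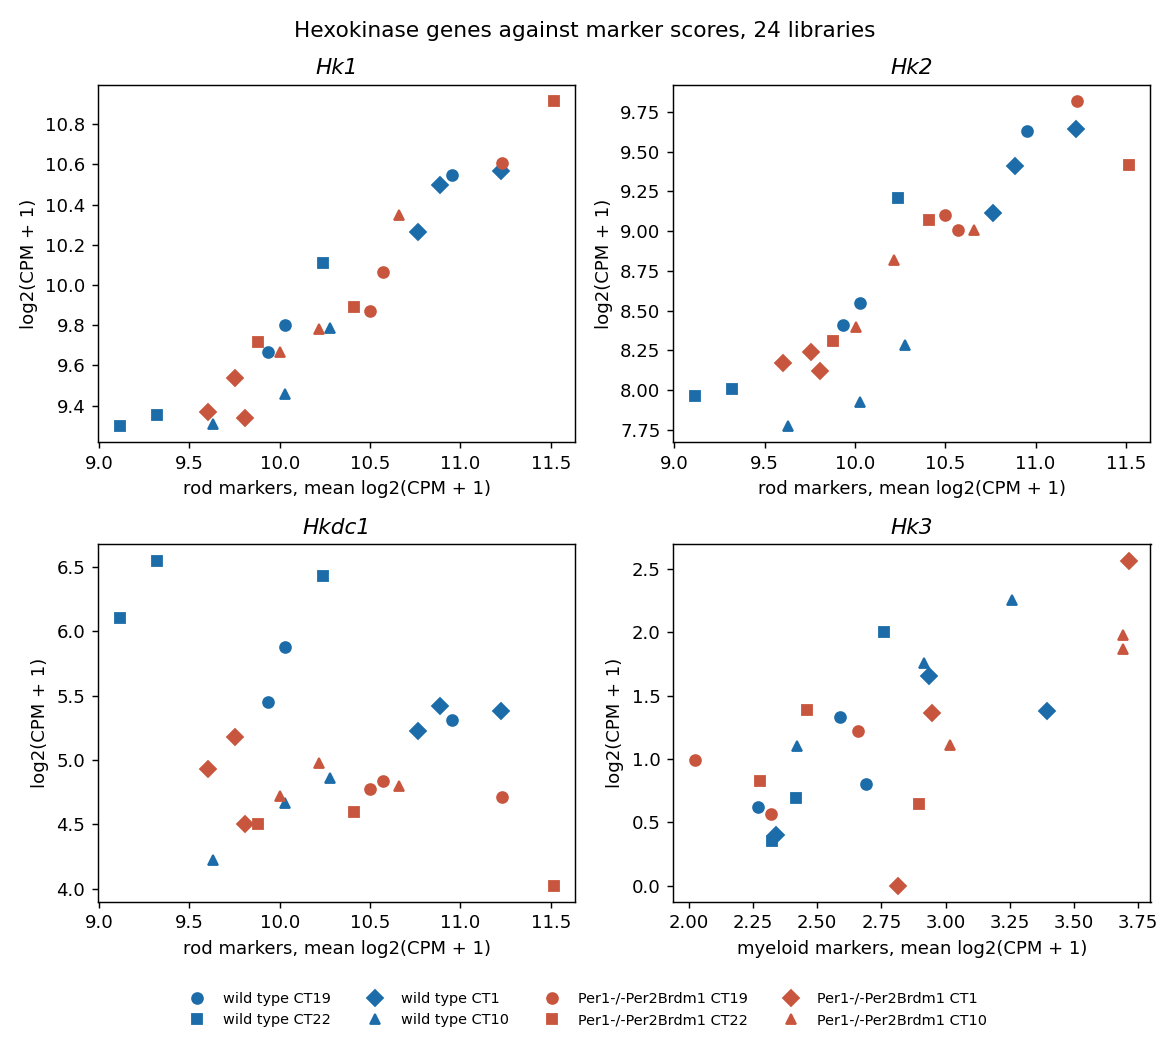
log2(CPM + 1) of Hk1, Hk2 and Hkdc1 (y axes) against the rod marker score, and of Hk3 against the myeloid marker score (x axes, mean log2(CPM + 1) of the list), with 1 point per library, colour for genotype and shape for time. Hk1 and Hk2 lie along a line with r of 0.957 and 0.908, Hk3 follows the myeloid score more loosely with r of 0.699, and the wild type CT22 libraries lie at the top of the Hkdc1 panel at low to middle rod scores.

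Hk3, the leukocyte form, was near the limit of detection. Its libraries ran from 0 to 4.93 CPM with a median of 1.24, and the 1 library at 0 was replicate 1 of knockout CT1, where 3 counts would be 0.108 CPM. The highest value, 4.93 CPM, stood in replicate 5 of the same group. The genotypes overlapped at every time, and fitted differences of -0.0022, -0.40, 0.67 and -0.11 in order from CT19 to CT10 had SE of 1.00 to 1.03 (adjusted p from 0.772 to 1 in edgeR), so differences of several fold were not detectable at this depth.

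Hk3 moved with the myeloid marker score. Its r with the myeloid score was 0.699 (permutation p 0.00011, adjusted p 0.000686) and Spearman's coefficient 0.698 (permutation p 0.00026). It was 0.58 without the 2 farthest libraries, 0.77 in wild type, 0.69 in knockout and 0.72 after group means. The macrophage genes Csf1r and Lyz2 were at 267 to 565 and 9.59 to 109.9 CPM and the leukocyte gene Ptprc at 0.60 to 15.9 CPM, while Aif1, Itgam and S100a8 reached 0 in some libraries. Csf1r did not follow the score by group. Its mean was 483 and 480 CPM in wild type at CT19 and CT22, where the mean score was 2.52 and 2.50. In knockout at CT10, where the mean score was highest at 3.47, Csf1r averaged 411 CPM. The part of myeloid cells in the Hk3 values was not tested.

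The share of Hkdc1 in the family followed its own level at CT22 and that of its paralogs at CT1. As a percentage of the summed per-length level of the 4 genes it was 10.04 ± 3.13% in wild type and 1.93 ± 0.95% in knockout at CT22 (SD, n = 3). At CT19 it was 4.63 ± 2.02% and 2.14 ± 0.60%, with overlapping ranges. At CT1 the order was turned, with 2.72 ± 0.22% in wild type and 4.15 ± 0.76% in knockout, where Hkdc1 itself was lower in knockout but Hk1 and Hk2 were lower still. At CT10 the shares were 3.37 ± 0.35% and 2.83 ± 0.60%. Per length, Hk1 exceeded Hkdc1 by 4.24 to 7.75 times in the wild type libraries at CT22 and by 23.3 to 76.0 times in the knockout libraries, with the highest ratio in replicate 2. Hk2 exceeded it by 2.38 to 5.95 times and 12.5 to 38.4 times. Hk1 and Hk2 made up most of the sum and correlated with the rod score (r of 0.957 and 0.908). The part of rod RNA in these shares was not tested.

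**Figure D4:**
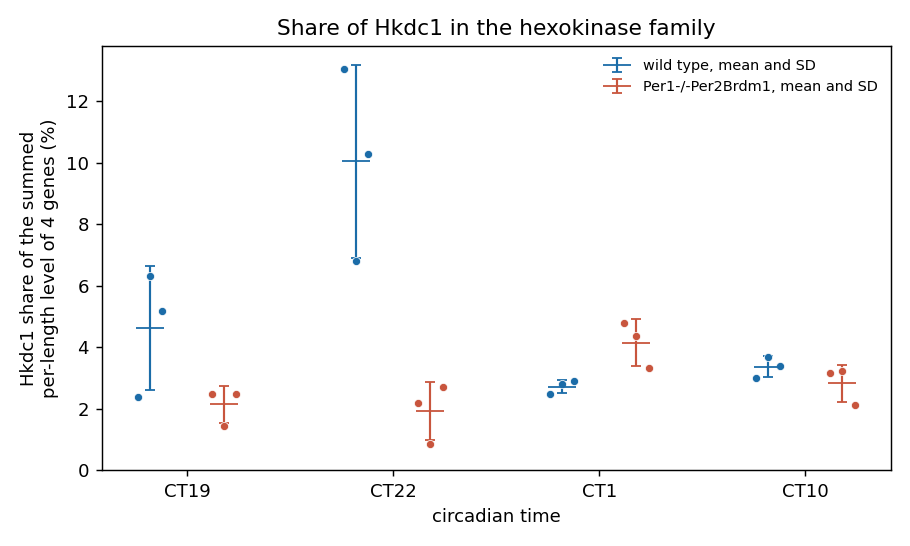
Hkdc1 as a percentage of the summed per-length level of Hkdc1, Hk1, Hk2 and Hk3 (y axis) at each circadian time (x axis), with 1 point per library and the mean ± SD of 3 libraries. Wild type at CT22 stands at 6.80 to 13.1%, above all other libraries, and at CT1 knockout lies above wild type.

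Genes with patterns most like that of Hkdc1 were ranked by Pearson's r of log2(CPM + 1) over 24 libraries, among 11563 tested genes with a mean of at least 5 CPM. These r are descriptions without a test, since the libraries share the groups on which Hkdc1 was chosen. The 8 most alike were the adhesion gene Cdh3, which encodes P-cadherin (r = 0.89), the Rap GTPase regulator Sipa1l3 (0.88), the F-box gene Fbxo27 (0.86), the sphingosine kinase Sphk2 (0.82), the nuclear envelope gene Syne1 (0.80), the ephrin receptor Ephb3 (0.79), the liprin Ppfibp2 (0.79) and the protocadherin Pcdh18 (0.79). Cdh3 was at 422 ± 59.8 CPM in wild type libraries of CT22, 133.04 ± 37.5 CPM in knockout ones, and 106 ± 26.7 and 145 ± 12.3 CPM at CT10. Its 3 highest groups were wild type at CT22, CT19 and CT1, as for Hkdc1, while its lowest group was wild type at CT10 and that of Hkdc1 was knockout at CT22.

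The 4 most opposite genes were all clock genes. They were Nr1d2, which encodes the repressor REV-ERB beta (r = -0.88), Ciart, a repressor of the clock activators (-0.84), the D-box factor Dbp (-0.84) and Per2 itself (-0.80), the last 4 of the ranking. For Dbp the CT22 means were 119.7 ± 22.1 CPM (wild type) and 388 ± 80.3 CPM (knockout), and those of CT10 were 498 ± 65.6 and 398 ± 32.1 CPM. Hk2 and Hk1 had r of -0.03 and -0.13 with Hkdc1.

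The likeness was also described without the time on which Hkdc1 was picked. The libraries left are among those that ranked the genes, so a large r over them is partly built in by that choice. Over the 18 libraries outside CT22, 2 of the 8 most alike genes remained among the first 8, namely Sipa1l3 (r = 0.91) and Cdh3 (0.89). The others of the 8 then ranked from 18 (Fbxo27, r = 0.75) to 281 (Ppfibp2, 0.60). Among the opposite genes r was -0.90 for Ciart, -0.84 for Dbp, -0.82 for Per2 and -0.79 for Nr1d2. Without the 2 libraries farthest from the median Hkdc1 level, replicates 1 and 3 of wild type CT22, r was 0.86 for Cdh3 and -0.81 for Nr1d2. After group means were subtracted, r was 0.58 for Cdh3 and -0.36 for Nr1d2, smaller in size than over the libraries as they stand. Among these genes Cdh3 and Per2 had no promoter window in the search. The E-box letters stood 3 times in the window of Ciart and once in that of Sipa1l3, beside 7.15% of all promoters with a match. The nuclear receptor core stood in windows of Fbxo27, Syne1 and Nr1d2 (16.3% of all promoters) and the OTX and CRX core in one of Fbxo27 (7.06%). CCAAT boxes stood in windows of Pcdh18, Ciart, Fbxo27, Sipa1l3, Dbp, Sphk2 and Nr1d2 (37.4%). Nothing is read from these matches.

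**Figure D5:**
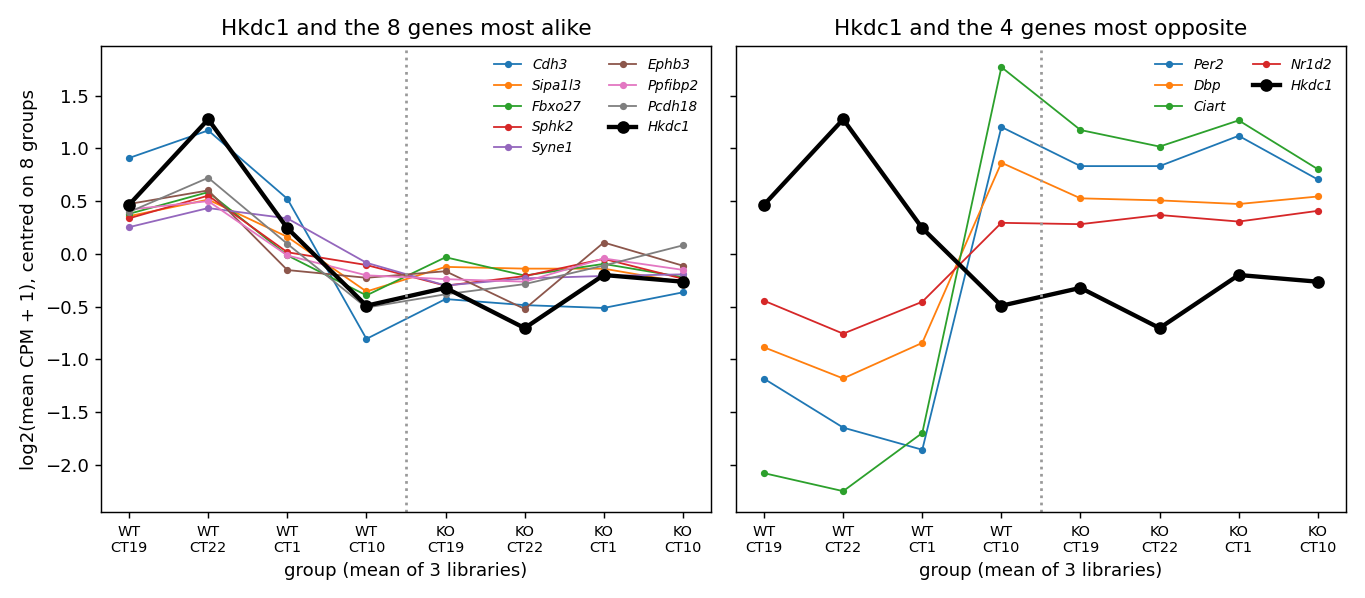
Group means on the scale log2(mean CPM + 1), centred on the 8 groups (y axis), for Hkdc1 in black and the 8 most alike genes (left panel) or the 4 most opposite (right panel), with the 4 wild type groups left of the dotted line and the 4 knockout groups (KO) right of it. Hkdc1 and Cdh3 are highest in wild type at CT22 and low in wild type at CT10, where Per2, Dbp and Ciart are high, and each of the 12 genes varies less among the knockout groups than among the wild type groups.

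The genes around Hkdc1 did not share its pattern past the threshold. Of the annotated genes within 250 kb of its gene body, 11 besides Hk1 were tested, and none passed a genotype contrast. The tetraspanin gene Tspan15 averaged 21.3 ± 1.08 CPM in the wild type CT22 libraries against 13.8 ± 1.48 CPM in knockout (log2 -0.62, SE 0.23; adjusted p 0.244 in edgeR). Stox1, which encodes a winged-helix protein, was at 28.9 ± 3.44 and 17.6 ± 3.40 CPM (log2 -0.72, SE 0.31; adjusted p 0.333 in edgeR). The RNA helicase gene Ddx21 was the only one of the 11 to pass the genotype by time test over 4 times (range 0.90, adjusted p 0.0429 in edgeR), which 4.62% of all tested genes passed.

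Of the other genes that handle glucose, 1 passed a genotype contrast. Lists of 97 transporters, sugar kinases, glycolytic, pentose phosphate, glycogen and hexosamine enzymes, mitochondrial porins and regulators were drawn up, of which 96 were in the table and 90 were tested. At CT19, CT22 and CT10 and in the average over times 0 of the 90 passed in edgeR, where 0.0691%, 0.227%, 0.0345% and 0.375% of all tested genes passed. At an unadjusted p under 0.05 there were 0, 17, 30 and 7 of the 90, beside 3.47%, 12.7%, 17.9% and 7.07% of all tested genes. DESeq2 passed 0, 1, 9 and 2 of the 90, and 39, 275, 750 and 169 of the 20275. At CT1 1 of the 90 passed, against 0.533% of all tested genes, and DESeq2 passed 9 of the 90 and 1081 of the 20275. Unadjusted p in edgeR was under 0.05 at CT1 for 28 of the 90, beside 19.5% of all tested genes. The genotype by time test over 4 times called 11 of the 90, of which 6 were glycolysis genes, beside 4.62% of all tested genes. Over CT19, CT1 and CT10 it called 13 of the 90, beside 4.42%.

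The gene that passed a genotype contrast was Pgam1, which encodes a phosphoglycerate mutase of lower glycolysis. At CT1 the wild type libraries averaged 74.0 ± 12.5 CPM against 23.6 ± 7.41 CPM for knockout (log2 -1.65, SE 0.30; adjusted p 0.0117 in edgeR), in counts that processed copies of the gene may share. The 22 tested glycolysis genes had a median log2 difference of -0.51 at CT1, 0.41 at CT22 and 0.33 at CT10, against -0.01, 0.03 and 0.09 over all tested genes. In the same comparisons Hk1 and Hk2 were lower in knockout at CT1 and higher at CT22 and CT10 by their fitted values, and the rod score differed with the same signs. Glucose transporters had medians of 0.14, -0.04 and 0.21 and other sugar kinases and glucose 6-phosphatases -0.01, 0.02 and 0.11.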

How the data were processed

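The deposited table holds raw read counts per gene for 24 libraries, made by the authors. The submitters' processing notes name the build GRCm38.p6 and the tools HTSeq 0.11, Cufflinks, HISAT2 2.1.0 and Trimmomatic 0.32. Their order and settings, the annotation release and the strand setting are not given in the sources used here. Total counts ran from 16245067 to 32066263 per library. Members and gene lists were chosen with earlier results of these data known.

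Genes were filtered with edgeR's filterByExpr (minimum count 10), which left 20275 genes, and scaled by TMM. A model with 8 group means and 16 residual degrees of freedom was fitted with edgeR 4.0.16 (robust quasi-likelihood test, R 4.3.3, limma 3.58.1). P-values were adjusted by Benjamini-Hochberg over all genes, with a threshold of 0.05. CPM were computed from the counts with TMM, and per-length levels are CPM per kilobase of union exons (GENCODE M21, GRCm38). The fit was also run on simulated counts with changes planted in knockout CT22. Those counts held no shared variation of rod or choroid RNA, so that run checks the code only. Genes beyond the members were named by likeness (the 8 most alike and 4 most opposite to Hkdc1), as neighbours, or as members of the glucose lists that passed a genotype contrast. The values of Tspan15 and Stox1 were chosen for mention after they were seen. Alternatives were RLE and total count scaling, DESeq2 1.42.0, other filters, only the 6 libraries of a time, marker score covariates, no pooled libraries, the replicate number as a block and leaving out each library. Some genes are not reported here.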

Additional observations from a re-analysis of the deposited data

Results flagged for a closer look

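The genotype difference of Hk2 changed over CT19, CT22, CT1 and CT10, with a log2 range of 1.98 (adjusted p 0.0443 in edgeR's quasi-likelihood F test, which called 4.62% of all tested genes). The call was lost on leaving out any 1 of 21 of the 24 libraries. It was also lost with RLE scaling (adjusted p 0.0616), total count scaling (0.0919), a mean of at least 5 CPM (0.0507) and no pooled libraries (0.255), all in edgeR. It was kept with DESeq2 (adjusted p 0.0047), with no filter (2.97e-07 in edgeR) and with the choroid covariate (0.0496 in edgeR). The difference was -1.23 at CT1 and 0.75 at CT10. The rod marker score differed between genotypes with the same signs, and with that score as a covariate the range was 0.86 (adjusted p 0.231 in edgeR). The part of rod RNA was not tested beyond that fit.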

How the results depend on the processing

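Directions and calls below are log2 values unless a count is named, and where one changed the cause was not tested. With RLE scaling the Hk2 genotype by time range was 1.86 and no longer passed (adjusted p 0.0616 in edgeR), and Hk3 at CT19 0.0201. With total count scaling, which moved the median of all genes at CT1 from -0.01 to 0.14 and at CT10 from 0.09 to -0.02, Hkdc1 over CT19, CT1 and CT10 in wild type was 0.82, the Hk2 range 1.72 (0.0919), Hk3 at CT19 0.0589, and 1 glucose gene passed on average. With DESeq2, Hk1 and Hk2 at CT1 (-0.997, -1.20), the Hk1 range (1.62) and Hk2 over wild type times (1.33) passed, Hk3 at CT19 was 0.0199, and 1, 9, 9 and 2 glucose genes passed at CT22, CT1, CT10 and on average. DESeq2 called 1081 of all genes at CT1 and 750 at CT10, against 108 and 7 in edgeR.

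With no filter, Hk1 and Hk2 at CT1 (-1.03, -1.23), over wild type times (0.90, 1.38), the Hk1 range (1.69) and Hk2 over knockout times (1.17) passed. Hk3 at CT19 was then 0.0089, and 8, 14, 13 and 1 glucose genes passed at CT22, CT1, CT10 and on average, beside 808, 1556, 999 and 378 of all 32680 genes. With a mean of at least 5 CPM, which leaves Hk3 out, the Hk2 range was 1.75 (adjusted p 0.0507 in edgeR) and 1 glucose gene passed on average. With only the 6 libraries of a time, Hk1 and Hk2 at CT1 passed (-1.02, -1.22) and Hk3 at CT19 was 0.0175.

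With the rod covariate Hk1 was -0.19 at CT19, -0.24 at CT22 and -0.0771 on average, Hk2 -0.40 at CT22 and -6e-04 on average, the Hk2 range 0.86 and Hk3 at CT19 0.0084. Glucose genes passing were 0 at CT1, 1 at CT10 and 1 on average. With the choroid covariate Hk1 was -0.22 at CT19 and -0.15 on average, Hk2 -0.0281, -0.11 and -0.0929 at CT19, CT22 and on average, and Hk3 0.40, 0.72 and 0.20 at CT19, CT22 and CT10. Hk1 and Hk2 over wild type times passed (0.89, 1.35), with 2 and 1 glucose genes at CT1 and CT10. Without the pooled libraries Hkdc1 over wild type times was 0.90, Hk1 at CT19 -0.0853, Hk2 on average -0.0055, the Hk2 range 1.83 (0.255), and 0 and 1 glucose genes passed at CT1 and CT10.

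Replicate numbers are not stated to pair the samples. Deviations of same-numbered libraries of the 2 genotypes at a time correlated between -0.19 and 0.17. Such pairs were few and were not compared across times, so this does not settle whether the numbers pair samples. With the replicate block (7 residual degrees of freedom) Hkdc1 at CT22 was -2.37, Hkdc1 over wild type times 0.99 (adjusted p 0.0788 in edgeR), Hk1 and Hk2 on average -0.0039 and -0.0422, and the Hk2 range 1.82 (adjusted p 0.546 in edgeR). Hk3 was 0.029 at CT19, -0.40 at CT1 and -0.23 on average, and 0 glucose genes passed at CT1.

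Leaving out each library in turn, Hkdc1 ran from -2.15 to -1.90 at CT22, from 0.75 to 1.07 over wild type times and from 0.81 to 1.13 for genotype by time. Hk1 ran from -0.10 to 0.51 at CT19, -1.13 to -0.96 at CT1, -0.0837 to 0.13 on average and 1.42 to 1.99 for genotype by time. Hk2 ran from 1.23 to 1.52 over wild type times and 1.79 to 2.25 for genotype by time. Hk3 ran from -0.33 to 0.57, -0.94 to 1.13, -0.78 to 1.26 and -0.51 to 0.30 at CT19, CT22, CT1 and CT10, and -0.33 to 0.41 on average. Glucose genes passing ran from 0 to 2, 0 to 4, 0 to 1 and 0 to 1 at CT22, CT1, CT10 and on average. Hk3 had at most 165 reads in a library, and its direction was not fixed at this depth.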
